A study of Mus musculus with 13 samples.

Results

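The 4 Hox clusters of the mouse genome were examined for the histone mark H3K27ac, which active promoters and enhancers carry, in C2C12 cells, a myoblast line derived from mouse thigh muscle that forms myotubes in low serum. The members were every H3K27ac peak of 12 libraries that overlapped 1 of 4 windows on the build mm9. These were HoxA on chromosome 6 at 52100001 to 52220000, HoxB on chromosome 11 at 96040001 to 96240000, HoxC on chromosome 15 at 102740001 to 102880000 and HoxD on chromosome 2 at 74490001 to 74615000. The windows held 984 of the 1117291 peaks of the 12 lists. They stand for 38 Hox genes, 10 each in HoxA and HoxB and 9 each in HoxC and HoxD.

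Unedited cells were sampled as differentiation medium was added (0 h), a day earlier (-24 h), and after 6, 12, 24, 48 and 72 h in it. These 7 libraries are called wild type here, the name the labels give at 48 h. At 48 h there were also 5 lines edited with CRISPR/Cas9. The Myod1_KO line lacked expression of MyoD, the transcription factor that drives muscle differentiation. The H1_KO and H3_KO lines each lacked a single region that the submitters call a hotspot, H1 or H3, and H23_KO and H34_KO lacked H3 as well as H2 or H4, H3 having been removed from cells that already lacked the other. Growth medium held 10% fetal bovine serum and differentiation medium 2% horse serum, and the labels call the cells of every library myoblasts. Whether MyoD was absent could not be checked from peak lists. Each condition had 1 library, so no test between conditions was run. Whether an edited line was 1 clone or a pool was not given in the sources used here. The labels also name a CRISPR control at 48 h, not analysed here. The edited lines were therefore set against unedited cells of 48 h. In these comparisons a deletion and the editing procedure itself cannot be told apart.

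Hox genes encode homeodomain transcription factors that give cells their position along the head-to-tail axis and along the limbs. Within a cluster the genes lie in the order in which they act along the body, from low-numbered genes at the head side to high-numbered ones at the tail side or the tip of a limb. Cells taken from an adult tissue often keep the Hox pattern of the place they came from, with active stretches of a cluster carrying H3K27ac and silent ones lying in repressed chromatin.

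Gene names could be given by cluster and order but not by position, because no annotation of mm9 was used. All 38 genes were found in the RefSeq table of GRCm38.p6. Sorted there by lowest coordinate, the HoxA genes listed run from Hoxa2, a hindbrain and branchial arch gene, through Hoxa3, Hoxa4, Hoxa5, Hoxa6, Hoxa7, Hoxa9 and Hoxa10 to Hoxa11 and Hoxa13, which pattern the forearm and the digits. The other clusters run the opposite way. HoxC starts at Hoxc13, a hair and nail gene, and passes Hoxc12, Hoxc11, Hoxc10, Hoxc9, Hoxc8, Hoxc6 and Hoxc5 to Hoxc4. HoxB starts at Hoxb13 and continues with Hoxb9, Hoxb8, Hoxb7, Hoxb6, Hoxb5, Hoxb3 and Hoxb4 to Hoxb2 and Hoxb1, which act in the hindbrain. HoxD starts at Hoxd13, Hoxd12 and Hoxd11, genes of the distal limb, and passes Hoxd10, Hoxd9, Hoxd8, Hoxd3 and Hoxd4 to Hoxd1. The low-coordinate end of the HoxA window is thus the side of the head genes, and that of the other windows the side of the tail genes.

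Promoter sequences from RefSeq (GRCm38.p6), 250 bases before to 50 bases after a gene's start, were found for 22 of the 38 genes, with 24 entries. A pair from paralogous group 9 and a pair from group 4 are shown because each sets a gene of a cluster with many peaks (Hoxa9, Hoxc4) beside its paralog in a cluster almost without them (Hoxd9, Hoxb4). Each is written 5′ to 3′ on its gene's strand, which is minus for Hoxa9 and plus for the others. Capitals mark CG dinucleotides, the sites of DNA methylation whose density defines CpG islands.
Hoxa9: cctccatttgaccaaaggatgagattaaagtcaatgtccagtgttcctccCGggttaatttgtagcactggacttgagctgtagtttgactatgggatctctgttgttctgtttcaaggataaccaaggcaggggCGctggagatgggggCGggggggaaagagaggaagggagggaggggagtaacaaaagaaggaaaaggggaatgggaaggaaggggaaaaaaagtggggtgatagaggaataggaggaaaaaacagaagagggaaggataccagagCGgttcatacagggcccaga
Hoxd9: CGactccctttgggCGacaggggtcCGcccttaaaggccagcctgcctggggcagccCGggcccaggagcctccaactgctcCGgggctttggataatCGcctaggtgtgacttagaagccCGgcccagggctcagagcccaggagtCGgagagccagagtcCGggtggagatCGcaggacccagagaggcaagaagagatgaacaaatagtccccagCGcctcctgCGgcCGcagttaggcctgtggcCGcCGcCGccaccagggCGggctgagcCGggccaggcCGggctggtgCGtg
Hoxc4: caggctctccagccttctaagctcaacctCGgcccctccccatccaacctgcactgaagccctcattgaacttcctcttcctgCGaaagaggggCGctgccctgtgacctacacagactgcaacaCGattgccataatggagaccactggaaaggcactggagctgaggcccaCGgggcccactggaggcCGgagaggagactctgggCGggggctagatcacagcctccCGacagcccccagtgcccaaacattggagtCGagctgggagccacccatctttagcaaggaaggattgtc
Hoxb4: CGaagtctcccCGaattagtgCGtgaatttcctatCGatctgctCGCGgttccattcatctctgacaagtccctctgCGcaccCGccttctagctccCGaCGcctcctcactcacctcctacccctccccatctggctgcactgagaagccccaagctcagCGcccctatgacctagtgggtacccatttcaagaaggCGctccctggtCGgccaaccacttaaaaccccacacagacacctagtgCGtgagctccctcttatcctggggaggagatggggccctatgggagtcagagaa

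The promoters of HoxD, a cluster almost without peaks, were no poorer in CG than those of HoxA. The median was 20 CG dinucleotides over the 10 HoxD entries (range 4 to 37) and 17.5 over the 10 HoxA entries (4 to 45), against 7 over all 32851 promoters of the table. The highest count in HoxA and in HoxD was that of the cluster's last tail-side gene, 45 in Hoxa13 and 37 in Hoxd13. CG occurs in 94.6% of all promoters and is its own reverse complement, so 1 strand was read. In the pairs shown, Hoxd9 had 20 and Hoxa9, the lowest of HoxA, had 4, and Hoxb4 had 14 and Hoxc4 had 9. The other groups with entries in both HoxA and HoxD were less one-sided. Hoxa3 and Hoxd3 had 20 each, and Hoxa10 had 21 and 12 against 22 in Hoxd10. Hoxa11 had 15 against 4 and 25 in Hoxd11, and Hoxa13 had 45 against 37 in Hoxd13. HoxB had 3 entries, with 10 to 14, and Hoxc4 was the only entry of HoxC, so no comparison was made for those clusters. The E-box letters CANNTG, the core to which MyoD and its relatives bind, occurred on either strand, with overlaps counted, in 6 of 10 HoxA, 9 of 10 HoxD, 2 of 3 HoxB and none of 1 HoxC entries, against 72.3% of all promoters. These are matches of letters and not binding sites.

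Peaks filled large parts of HoxC and HoxA in every library and were nearly absent from HoxB and HoxD. HoxC held 34 to 61 peaks per library, which covered 20.9% to 40.6% of its 140 kb window with a median of 36.2% over the 12 libraries. HoxA held 21 to 50 peaks, which covered 11.2% to 33.0% of its 120 kb window with a median of 25.6%. The covered share of HoxC exceeded that of HoxA in each of the 12 libraries. HoxB, 200 kb long, had 4 peaks over all 12 lists, and HoxD, 125 kb long, had 1. The 6 wild-type lists other than 48 h had none in either.

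**Figure D1:**
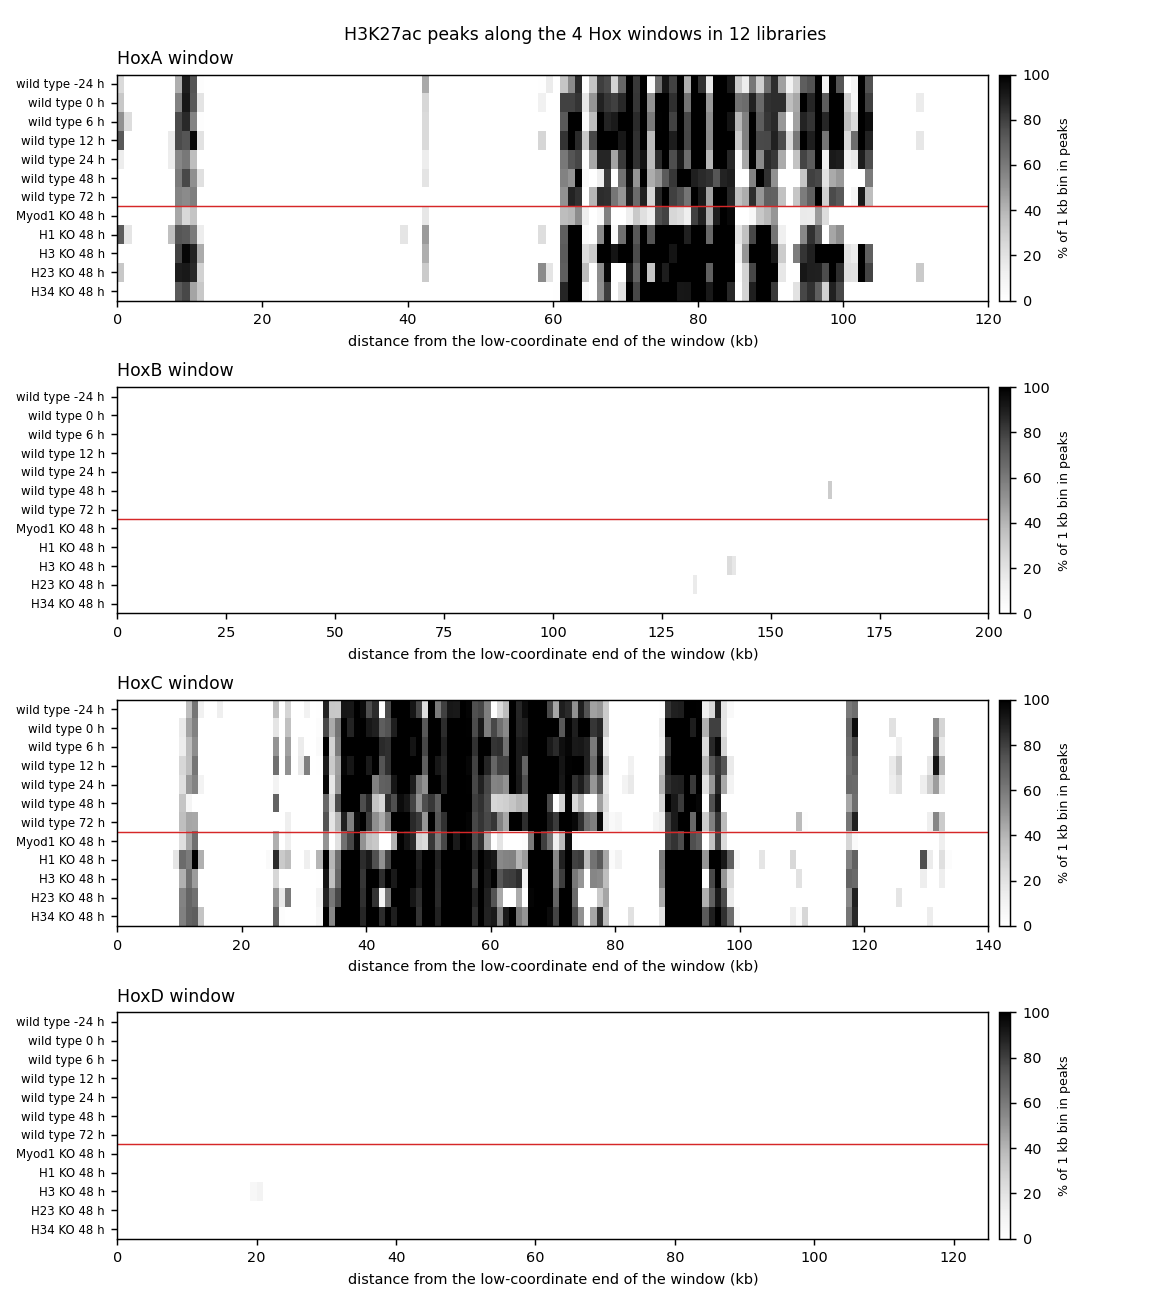
Share of each 1 kb bin lying in H3K27ac peaks (grey scale, 0% to 100%) along the HoxA, HoxB, HoxC and HoxD windows, with distance from the low-coordinate end in kb on the horizontal axis and 1 row per library, wild-type libraries above the red line and edited lines below it. HoxA is filled mainly between 60 and 104 kb and HoxC between 32 and 98 kb in nearly all rows, while HoxB and HoxD hold 4 and 1 short peaks.

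The level of HoxA and HoxC was high for the genome. Tiles of the same length laid end to end over the chromosomes, gene deserts included, had a median covered share between 0% and 0.167% for HoxA's length and between 0% and 0.318% for HoxC's, depending on the library. The HoxA window exceeded 98.7% to 99.97% of the 21443 tiles of its length, and the HoxC window exceeded 99.6% to 99.99% of 18378. For HoxB and HoxD the lack of peaks was common for a stretch of that size. HoxB had no peak in 9 of the 12 libraries, and 39.8% of 12862 tiles of 200 kb had none in 9 or more. HoxD had none in 11 of 12, and 42.1% of 20585 tiles of 125 kb had none in 11 or more. Peak-free status therefore did not by itself set HoxB or HoxD apart from the genome.

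The 5 peaks of HoxB and HoxD were short and ranked at or below the middle of their lists, above 30.8% to 50.3% of the peaks. In the 48 h wild-type list, HoxB had a peak of 306 bp at 96203263 to 96203568, with a deposited fold enrichment of 5.65 and a −log10 p-value above those of 32.8% of that list. In H3_KO, HoxB had peaks of 192 bp at 96180055 to 96180246 and 213 bp at 96180961 to 96181173, above 50.3% and 33.5% of the list. In H23_KO it had 1 of 151 bp at 96172841 to 96172991, above 39.8%. No 2 libraries had a peak at the same place. The HoxD peak, 163 bp at 74509933 to 74510095, was found in H3_KO and stood above 30.8% of that list. When each list was limited to its 55585 strongest peaks, the number in the shortest list, HoxD had no peak, H23_KO had none in HoxB and H3_KO had 0.096% of HoxB covered in place of 0.203%.

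Peaks were nevertheless found near the blank windows. The nearest peak beyond the high-coordinate end of HoxB, the side of Hoxb1, lay 15.4 to 29.3 kb away over the 12 libraries. That beyond its other end lay 34.7 to 103 kb away. Beyond the low-coordinate end of HoxD, the side of Hoxd13, the nearest peak was 72.3 to 72.7 kb away in all 12 libraries. Beyond its other end it was 48.5 to 49.25 kb away in 11 libraries and 624 kb in the 24 h library. In the 100 kb next to a window, peaks covered a median of 1.10% on the low side and 4.32% on the high side of HoxB, and of 0.97% and 0.61% for HoxD. For comparison these medians were 2.93% on the low side and 0.47% on the high side of HoxA, and 1.31% and 4.81% for HoxC. In HoxA and HoxC these medians lay below the 25.6% and 36.2% inside the windows.

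HoxA was acetylated over its high-coordinate part, on the side of the tail and limb genes. The part from 60 kb to the end held 85.8% to 94.2% of its covered bases, with a median of 91.0%. The stretch from 60 to 72 kb was covered to a median of 56.9% over libraries, that from 72 to 84 kb to 87.8%, that from 84 to 96 kb to 56.3% and that from 96 to 108 kb to 39.6%. Between 12 and 36 kb no library had a peak base. An isolated patch near the low end, at 7 to 12 kb, was found in all 12 libraries and was covered to 20.7% in Myod1_KO and to between 33.3% and 61.6% in the other 11. No list had a peak base in the last 9 kb, from 111 kb on, at the end where the order places Hoxa13. The main block, from 58 to 98 kb, held 76.9% to 91.0% of the covered bases of the window. The widest run of 1 kb bins with at least 500 covered bases in all 12 libraries spanned 3 kb of HoxA, at 52182001 to 52185000. In the 7 wild-type libraries alone the widest such runs were 4 kb each, at 52169001 to 52173000 and at 52174001 to 52178000.

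HoxC was filled in its middle. Its coverage was highest from 42 to 56 kb, with a median of 90.2%, and from 56 to 70 kb, with 84.6%. A gap from 79 to 86 kb, which held at most 264 covered bases in any library, separated this block from a second one at 86 to 98 kb, covered to 51.9% to 83.3%. A narrow patch at 117 to 119 kb was present in all 12 libraries. It was covered to 14.6% in Myod1_KO and to at least 54.0% in each of the others. The widest run occupied in all 12 libraries spanned 9 kb, at 102790001 to 102799000, and the next 6 kb, at 102828001 to 102834000. In the 7 wild-type libraries the first of these was 10 kb long. No peak base was found in the first 9 kb, on the side of Hoxc13, or in the last 6 kb, on the side of Hoxc4. The main block, from 32 to 79 kb, held 67.8% to 76.6% of the covered bases of the window. The stretches named here by their distance in kb were delimited after the values were seen.

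**Figure D2:**
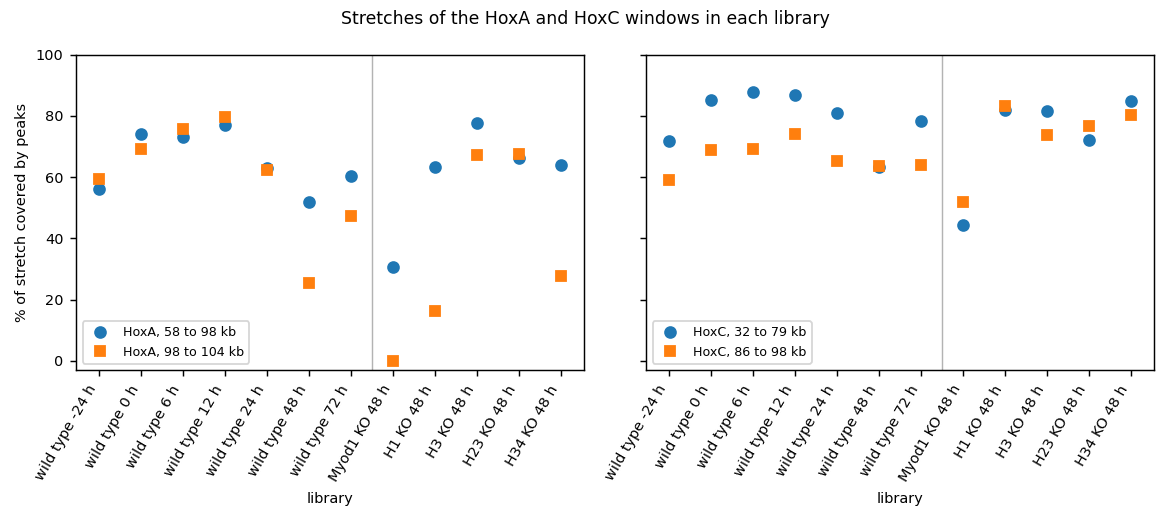
Percent of a stretch covered by peaks (vertical axis) in each of the 12 libraries (horizontal axis, wild type left of the grey line) for 2 stretches of HoxA (left) and 2 of HoxC (right). The HoxA stretch from 98 to 104 kb is lowest in Myod1_KO, at 0%, and H1_KO, at 16.2%, whereas the second HoxC block stays between 51.9% and 83.3%. The stretches were delimited after the values were seen, and the last HoxA peak base of Myod1_KO lies at 97.2 kb.

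Peaks in the windows ranked above the middle of their lists and were wider than usual. The median Hox peak stood at the 57.6th to 80.9th percentile of its own list by the deposited score or fold, and the median over the 12 libraries was 74.35. The strongest HoxC peak was at the 98.8th percentile or higher in every list. Median peak width in the windows was 334.5 to 731 bp, against 203 to 420 bp in the whole lists. The number of peaks did not follow the bases covered. In H3_KO HoxA had 21 peaks that covered 38.5 kb, the widest 8.85 kb long, whereas the 48 h wild-type library had 34 peaks covering 24.6 kb. Wider peaks can more easily overlap a peak of another list, and the part of width in the shared fractions given next was not tested.

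The first comparison asked whether Hox acetylation changed as myoblasts differentiated. In the lists as deposited, coverage was highest at 12 h and lowest at 48 h in both HoxA and HoxC, and HoxB held 1 peak at 48 h and HoxD none. HoxA was covered to 24.0% (-24 h), 30.8% (0 h), 30.9% (6 h), 33.0% (12 h), 25.8% (24 h), 20.5% (48 h) and 23.9% (72 h). HoxC had 31.5%, 37.6%, 38.7%, 40.2%, 36.0%, 28.2% and 34.9% in the same order. The highest value was 1.61 times the lowest in HoxA and 1.43 times in HoxC, or 1.38 and 1.28 times without the 48 h library. The length of the lists moved with coverage at some times and not at others. The 12 h list held the most peaks of the time course, 101331 against 69251 to 86465 at the other times, and covered 41.3 Mb, but the 48 h list covered 45.4 Mb with the lowest Hox coverage. As a share of all covered bases of a list, the 4 windows made up 0.272%, 0.257%, 0.260%, 0.232%, 0.332%, 0.142% and 0.312%, again in the order of time. On that scale 24 h was highest and 12 h was lowest after 48 h. With the 55585 strongest peaks of each list, HoxA was still highest at 12 h (31.1%) and lowest at 48 h (18.7%). HoxC was then highest at 6 h (37.8%), with 37.7% at 12 h, and lowest at 48 h (26.6%). The share in the windows was 0.378% at 24 h, 0.277% at 12 h and 0.147% at 48 h with these equal lists.

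**Figure D3:**
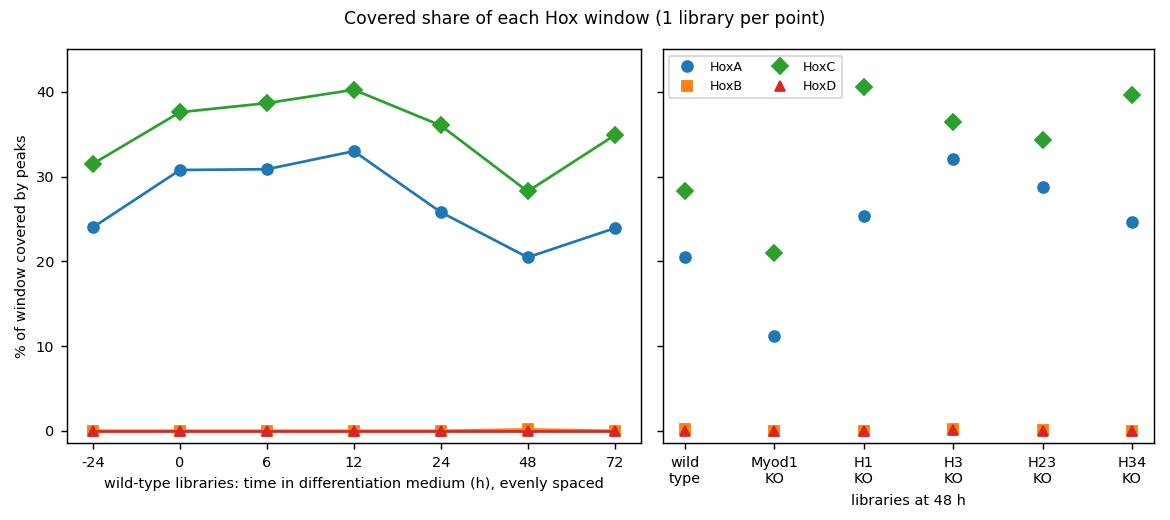
Percent of each Hox window covered by peaks (vertical axis), by time in the 7 wild-type libraries (left, hours in differentiation medium, not to scale) and in the 6 libraries at 48 h (right), 1 library per point. HoxC lies above HoxA everywhere, both are lowest in Myod1_KO, at 20.9% and 11.2%, and HoxB and HoxD stay at or near 0%.

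Bins of 1 kb showed the same positions in use at most times. Of 104 bins of HoxA and HoxC occupied in at least 1 wild-type library (at least 500 covered bases), 57 were occupied in all 7, or 54.8% (95% Wilson interval 45.2 to 64.0). Over the genome the share was 15.1%, with 8958 of 59230 bins. HoxA had 22 of 44 and HoxC 35 of 60. At the other end, 6.82% of HoxA and 5% of HoxC bins were occupied at 1 time only, against 36.8% of the genome's. None of the 104 bins was newly occupied at 24, 48 and 72 h after being free at -24 and 0 h, and none showed the reverse, patterns found in 0.96% and 3.76% of the genome's bins. With counts of 0 these shares could still be as high as 3.56%, the upper limit of the 95% Wilson interval, so a difference from the genome in late gain was not detectable with this number of bins.

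The 48 h library lacked some bins that all the others had. In 14 of the 104 bins (13.5%) all 6 other wild-type libraries were occupied and 48 h was not, against 2.23% of the genome's bins. Both shares are of bins occupied in any wild-type library. Of bins occupied in all 6 others, 48 h lacked 14 of 71 in the windows and 1320 of 10278 over the genome, a smaller contrast. The 48 h list had another format than the other wild-type lists, and time and format cannot be told apart. Without it, 71 of 104 Hox bins (68.3%, 58.8 to 76.4) were occupied at every time, against 23.2% of the genome's.

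**Figure D4:**
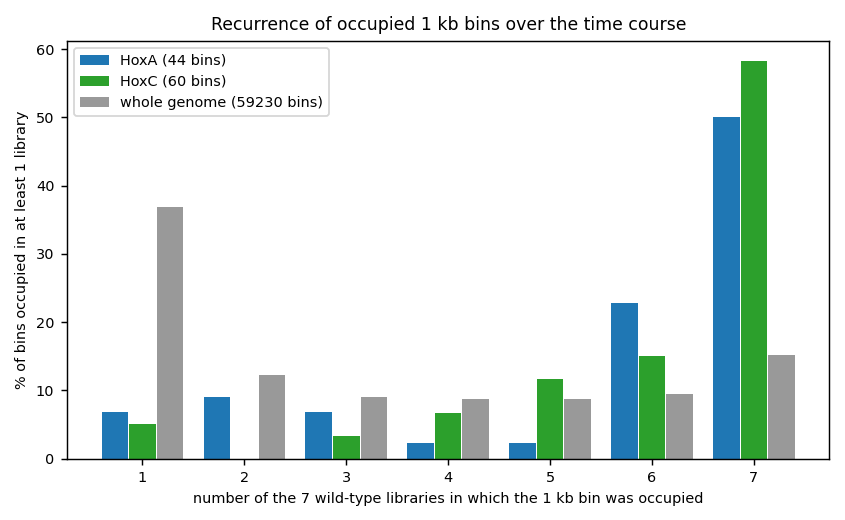
Percent of 1 kb bins (vertical axis) by the number of the 7 wild-type libraries in which they were occupied (horizontal axis), for HoxA (44 bins), HoxC (60 bins) and the whole genome (59230 bins). Bins occupied in all 7 make up 50% of HoxA and 58.3% of HoxC against 15.1% of the genome, where bins occupied at 1 time are the most frequent, at 36.8%.

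Peaks were compared between the first and the last time point. Of the 100 Hox peaks at -24 h, 16 (16%, 10.1 to 24.4) overlapped none at 72 h, against 42.7% of the whole list. In reverse, 22 of 106 Hox peaks at 72 h (20.8%, 14.1 to 29.4) had none at -24 h, against 37.4%. In HoxC this was 18 of 61 and in HoxA 4 of 45. By bases, 83.9% of HoxA and 89.9% of HoxC bases covered at -24 h were covered at 72 h, against 55.4% of the whole list. Adjacent peaks of a cluster may share their source, and with single libraries the intervals allow for counting error alone.

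The Myod1 knockout asked what the loss of MyoD does to acetylation. In this library Hox coverage was the lowest of all 12, and HoxA was lower relative to HoxC than in any other library. HoxA peaks covered 13.4 kb against 24.6 kb in wild type at 48 h, and HoxC peaks 29.3 kb against 39.5 kb. The whole list covered 18.3 Mb in the knockout and 45.4 Mb in wild type, and the share of these bases lying in the windows was 0.234% in the knockout and 0.142% in wild type. Of 73 wild-type Hox peaks 19 (26%, 17.3 to 37.1) had no knockout peak, against 57.5% of the whole list. Conversely, 8 of 80 knockout Hox peaks (10%, 5.16 to 18.5) had no wild-type peak, against 25.5%. The ratio of HoxA to HoxC bases was 0.459 in the knockout, 0.621 in wild type at 48 h and 0.533 to 0.757 over the 11 other libraries.

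The 2 acetylated clusters differed in how much of the wild-type pattern was found in the knockout. HoxC kept 67.2% of its wild-type bases and HoxA 47.5%, against 30.6% for the whole list. The knockout covered fewer bases, most of all in the whole list, which limits how much could be kept. Of the knockout's own bases, 90.6% in HoxC and 86.7% in HoxA lay in wild-type peaks, against 75.8% for the whole list. Counted in occupied bins, 29 of 39 in HoxC (74.4%, 58.9 to 85.4) and 9 of 29 in HoxA (31.0%, 17.3 to 49.2) were also occupied in the knockout, where the genome had 26.3%. By this count HoxA was near the genome's level and HoxC above it. By overlap of peaks the order was the other way, with 6 of 34 wild-type peaks lacking in HoxA and 12 of 38 in HoxC. The median HoxA peak was 280.5 bp wide in the knockout and 526 bp in wild type, and the medians for HoxC were 412.5 and 540 bp. The median rank of HoxA peaks by fold was the 49.65th percentile of the knockout list, and that of HoxC peaks the 73.7th.

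The end of the HoxA block, from 98 to 104 kb, differed widely between the edited lines. The knockout had no peak base there. Coverage was 16.2% in H1_KO, 25.4% in wild type at 48 h and 27.6% in H34_KO, but 67.2% in H3_KO and 67.5% in H23_KO. In the 6 other wild-type libraries it was 47.5% to 79.5%. The widest wild-type HoxA peak without a counterpart in the knockout lay here, 600 bp at 52203133 to 52203732. It was also the widest one missing in H1_KO and in H34_KO, and had a peak in H3_KO, H23_KO and all wild-type libraries. Of the 3 lines that share the H3 deletion, H3_KO and H23_KO were thus high in this stretch and H34_KO was low. At 58 to 98 kb, beside it, the knockout had 30.6%, wild type at 48 h 51.8%, and the hotspot lines 63.4% to 77.6%. The widest wild-type HoxC peak missing in the knockout, 793 bp at 102788725 to 102789517, had a peak in the 11 other libraries, although its −log10 p was above only 0.52% of the wild-type list.

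The next comparison asked how removal of a hotspot bears on Hox acetylation. In all 4 lines nearly all wild-type Hox peaks were present, and coverage of both HoxA and HoxC was above that of wild type at 48 h, the lowest of the wild-type libraries. HoxA was covered to 25.4% in H1_KO, 32.1% in H3_KO, 28.8% in H23_KO and 24.6% in H34_KO, against 20.5% in wild type. HoxC was covered to 40.6%, 36.4%, 34.3% and 39.6% in the same order of lines, against 28.2%. The lists of these lines covered 58.4 to 81.5 Mb against 45.4 Mb, and their lowest −log10 p was 3.005 to 3.03 against 4.13. With peaks of a −log10 p of at least 4 alone, the lines had 24.4% to 32.1% in HoxA and 33.9% to 40.4% in HoxC, still above wild type at 48 h. Set against the 6 other wild-type libraries, with 23.9% to 33.0% in HoxA and 31.5% to 40.2% in HoxC, the lines lay within that range, except for H1_KO in HoxC, at 40.6%. As a share of the list, the windows came to 0.124%, 0.154%, 0.101% and 0.116% in that order, against 0.142% in wild type. H3_KO, with the fewest bases of the 4 lists, thus had the highest coverage of HoxA of the 4 and a share above wild type at 48 h, and the other 3 lines had a share below it. With the 55585 strongest peaks of each list the shares were 0.1555% in H1_KO, 0.184% in H3_KO, 0.120% in H23_KO and 0.151% in H34_KO against 0.147% in wild type, so that H1_KO and H34_KO turned to above it.

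Few wild-type Hox peaks were missing in any hotspot line. In H1_KO 5 of 73 (6.85%, 2.96 to 15.1) had no peak, against 16.2% of the whole list. In H3_KO it was 2 (2.74%, 0.755 to 9.45), against 26%. In H23_KO it was 6 (8.22%, 3.82 to 16.8), against 18.2%, and in H34_KO 3 (4.11%, 1.41 to 11.4), against 18%. All 4 intervals lay below the share of the whole list. They allow for counting error alone, and adjacent peaks of a cluster may share their source, so this is not a test of a difference. Of the 2 peaks missing in H3_KO, 1 was the 306 bp HoxB peak of the wild-type list and the other lay in HoxC, 272 bp at 102817184 to 102817455. The widest peak missing in H23_KO was 395 bp, at 102814393 to 102814787 in HoxC. The 5 peaks missing in H1_KO included 4 of HoxA and none of HoxC, whereas the 6 missing in H23_KO included none of HoxA and 5 of HoxC. A peak in all 5 edited lines was found for 52 of the 73 (71.2%, 59.99 to 80.35), against 38.8% of the list. A peak in the 4 hotspot lines but not in the knockout was found for 10 (13.7%, 7.61 to 23.4), against 23.7%, just above the interval. Of the 73, 1 had no peak in any line, and none was found in H1_KO while missing in all 3 lines without H3 (the interval reaches 4.999%, and the whole list had 4.74%).

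Peaks of the hotspot lines that wild type lacked were more frequent, in the windows as elsewhere. In H1_KO 37 of 87 Hox peaks (42.5%, 32.7 to 53.0) had no wild-type peak, against 55.6% of its list. In H3_KO it was 21 of 58 (36.2%, 25.05 to 49.1), against 48.6%, a value inside the interval. The counts were 27 of 68 (39.7%, 28.9 to 51.6) in H23_KO, against 59.4%, and 17 of 59 (28.8%, 18.8 to 41.4) in H34_KO, against 56.2%. With equal lists the intervals of H1_KO (13.6 to 37.2) and H3_KO (14.6 to 39.4) held the share of the list, 31% and 34.1%. In HoxC the low patch at 9 to 14 kb was covered to 56.9% in H1_KO, 30.5% in H3_KO, 37.5% in H23_KO and 46.0% in H34_KO, whereas wild type had 8.42% at 48 h and 21.0% to 27.4% at the other times. Myod1_KO had 26.1% there.

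**Figure D5:**
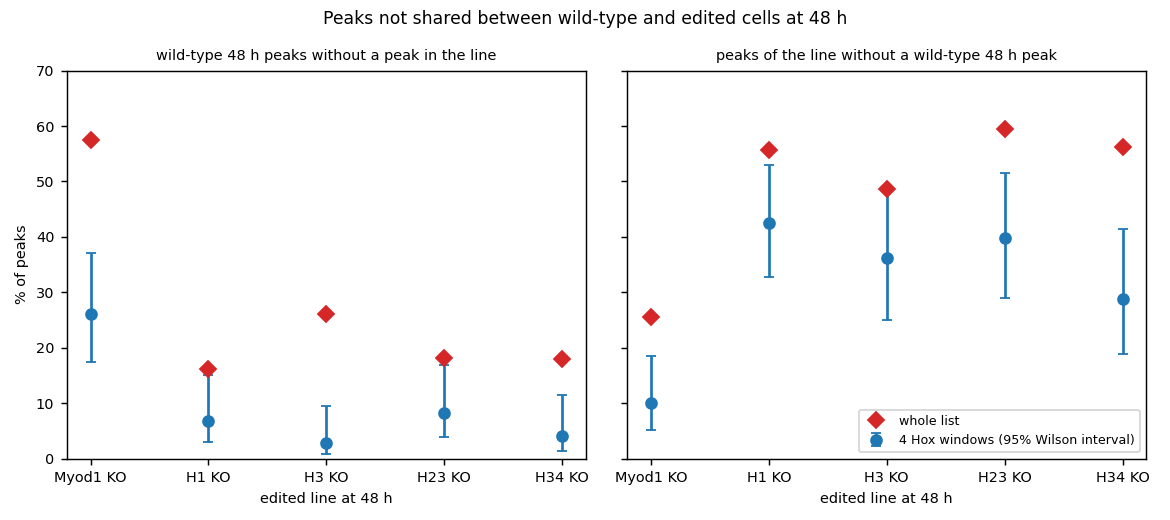
Percent of peaks without an overlapping peak in the other library (vertical axis) for each edited line (horizontal axis), in the 4 Hox windows (circles, bars are 95% Wilson intervals over 58 to 87 peaks) and in the whole list (diamonds). Wild-type peaks missing in a line are on the left and peaks of a line missing in wild type on the right, and all 10 circles lie below their diamonds.

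Among the 4 hotspot lines the HoxC patterns were alike and the HoxA patterns somewhat less so. The Jaccard index of 2 libraries (bases covered in both, divided by bases covered in either) was 0.767 to 0.837 for the 6 pairs in HoxC and 0.693 to 0.788 in HoxA. With the Myod1 knockout it was 0.516 to 0.601 in HoxC and 0.348 to 0.431 in HoxA. The index cannot exceed the smaller coverage divided by the larger, and the knockout covered fewer bases. It had 29.3 kb in HoxC against 48.0 to 56.8 kb in the 4 lines, and 13.4 kb in HoxA against 29.55 to 38.55 kb. Its low index was therefore not read as a difference in position. In HoxA the highest index was that of H3_KO with H23_KO, at 0.788. The index of H34_KO was 0.753 with H1_KO and 0.740 and 0.734 with H3_KO and H23_KO, the lines with which it shares the H3 deletion. In HoxC the highest was that of H3_KO with H34_KO, at 0.837. Over all 12 libraries, 9 of 45 occupied bins in HoxA (20%, 10.9 to 33.8) and 29 of 67 in HoxC (43.3%, 32.1 to 55.2) were occupied in every one, against 4.98% of the genome's. In HoxA these 9 were all the bins that wild type at 48 h shared with the Myod1 knockout. Counted in 9 or more of the 12 libraries, the clusters were alike, with 31 of 45 bins in HoxA (68.9%) and 45 of 67 in HoxC (67.2%), against 15.8% of the genome's.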

How the data were processed

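H3K27ac ChIP-seq peak lists of 12 libraries were used, 1 per condition and 1 list per library. Per the submitters' processing notes, peaks were called with MACS2 2.1.0 on mm9. Neither aligner, read filters, control library nor cutoffs are given in the sources used here. Depth in reads is unknown. The authors' lists of the 6 wild-type libraries other than 48 h had 5 columns, with a score of no stated unit. For 48 h, all 6 deposited lists hold 10 columns, with a score, a fold enrichment ratio, a −log10 p and a −log10 q per peak. These are the authors' values and were used to rank peaks within a list and to filter lists by a cutoff. One such cutoff, a −log10 p of at least 4, was common to the 48 h lists, whose coverage was then compared.

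The windows were given in advance, and the members and comparisons were chosen with earlier results of these data known. Covered bases were counted inside the windows, and a peak counted as in a window, or as shared, on an overlap of 1 base. Bins of 1 kb were occupied with at least 500 covered bases. Tiles ran from the first to the last peak of each autosome and of X. Intervals are 95% Wilson intervals. Regions named were the widest runs of bins occupied in all 12 or all 7 wild-type libraries and, per edited line, the widest wild-type peak it lacked. The build of the gene and promoter tables is GRCm38.p6, whose coordinates were not used. Muscle marker genes were not checked, since no gene was placed on mm9. Alternatives were stricter lists (q under 0.001, or a score of at least 5), the 55585 strongest peaks of each list, windows widened by 20 kb, a bin with 1 covered base, an overlap of 50%, peak midpoints, and −log10 p in place of fold. The code was tested on simulated data. Python 3.11.15, numpy 2.4.6, pandas 2.3.3, scipy 1.17.1 and matplotlib 3.10.9 were used.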

Additional observations from a re-analysis of the deposited data

How the results depend on the processing

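Alternatives were tried for 62 results, 233 in all. These were percentages and percentile ranks. No test was run, so no call could change, but the direction of a comparison could. The Hox shares of H1_KO and H34_KO turned from below to above wild type at 48 h with the 55585 strongest peaks of each list. With the same lists the highest HoxC coverage of the time course moved from 12 h to 6 h. For the values that answer a comparison, 83 alternatives stayed within the interval of the reported share or, for values without one, within 1.5 times the reported value, and 6 did not. Leaving out the 48 h wild-type library raised the share of Hox bins occupied at every time from 54.8% to 68.3%. With the 55585 strongest peaks of each list, 9.30% of Hox peaks at -24 h lacked a 72 h peak (39.6% of the list). The share of a line's Hox peaks without a wild-type peak was then 23.4% in H1_KO (31% of the list), 25.0% in H3_KO (34.1%), 17.5% in H23_KO (37.9%) and 14.6% in H34_KO (32.9%); each list is shorter there by construction. The intervals were 13.6 to 37.2 in H1_KO, 14.6 to 39.4 in H3_KO, 8.745 to 31.95 in H23_KO and 6.88 to 28.4 in H34_KO, so those of H1_KO and H3_KO held the list's share. Widening the windows by 20 kb lowered the median covered share to 19.2% in HoxA and 28.4% in HoxC and left HoxB and HoxD at 0%. The common −log10 p of at least 4 in the 48 h lists, medians without the 48 h library and alternatives for position were chosen after seeing the data. Depth was unknown, so what it hides in HoxB and HoxD was not tested. No paired analysis was possible because each condition had 1 library.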
